A study of Mus musculus with 10 samples.

Results

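The binding of OTX2 was compared gene by gene between epiblast stem cells (EpiSCs), a culture model of the epiblast, and definitive endoderm (DE) made from them. The members are the 19974 genes that the authors' deposited tables name as nearest gene of at least 1 OTX2 peak, and each was placed in a class by its number of peaks in the EpiSC table and in the DE table. The classes were EpiSC only (408 genes), both states with an equal or lower number of DE peaks (1910 genes), both states with more DE peaks (2778 genes) and DE only (14878 genes). The data were CUT&RUN peak lists, in which an antibody directs a nuclease to its target in permeabilised cells and the released DNA is sequenced. The EpiSC list held 6319 peaks and the DE list 42711.

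Of the 10 samples of the series, 4 were used for the counts, 2 anti-HA samples of EpiSCs and 2 of DE, from 500000 cells each. All 4 came from 1 tagged line, 7H OTX2-dTAG-EGFP, of a BL6/129 hybrid strain, so a difference between lines could not be seen. The medium of the EpiSCs was N2B27, to which FGF2 (12.5 ng/ml), Activin A (20 ng/ml) and NVP (175 nM) were added. For DE the medium was CDM, with CHIR (3 µM) and Activin A (40 ng/ml) during 16 h, followed by LDN (100 nM) and Activin A (100 ng/ml) during 24 h, after which DAPI was used to sort for live cells. The lists of 3 IgG samples of the tagged EpiSCs and of 1 anti-HA DE sample of line 5.8, the parental line without the tag, served as background. Both HA replicates of a state share 1 deposited list, so no value below has a replicate spread, no test between the states was possible, and every comparison is between the lists. Peak lists hold no expression values, so the labelled cell types could not be checked against their markers.

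OTX2 is a homeodomain transcription factor needed for the anterior of the early embryo, and it acts in the primed epiblast as well as in anterior endoderm. A transcription factor can bind near a gene at its promoter or at enhancers inside and around it, and a gene can be served by several such sites. The number of peaks named for a gene is therefore a measure of how much bound sequence lies near it, and it also depends on how much sequence lies closer to that gene than to any other.

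To show what lies under such peaks, the RefSeq sequence before the start of genes of the 4 classes is given here, on GRCm38.p6, the assembly behind mm10. Each is the 250 bases before the gene's outermost transcript start, written 5′ to 3′ in the direction of the gene, and capitals mark the bases inside a peak of either list. Hist1h3c, a histone H3 gene (EpiSC only, chr13:23745522-23745771, minus strand), had 123 of these bases in an EpiSC peak and none in a DE peak. Ptma, the gene of prothymosin alpha (9 peaks in each list, chr1:86526307-86526556, plus strand), had 104 bases under a peak of each list, both starting at position 86526453. Jarid2, which encodes a partner of the Polycomb complex PRC2 (7 EpiSC and 19 DE peaks, chr13:44730524-44730773, plus strand), had 72 bases under an EpiSC peak and 158 under a DE peak. Gsc, the goosecoid homeobox gene of the organiser (1 EpiSC and 4 DE peaks, chr12:104473237-104473486, minus strand), had 148 bases under a DE peak alone, and Rps24, a ribosomal protein gene (DE only with 6 peaks, chr14:24490428-24490677, plus strand), had 89.
Hist1h3c: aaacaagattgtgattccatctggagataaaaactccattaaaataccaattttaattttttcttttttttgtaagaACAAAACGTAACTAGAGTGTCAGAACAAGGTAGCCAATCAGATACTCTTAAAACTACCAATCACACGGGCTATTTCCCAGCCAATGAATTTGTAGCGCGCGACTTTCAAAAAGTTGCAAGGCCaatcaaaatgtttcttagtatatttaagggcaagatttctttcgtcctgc
Ptma: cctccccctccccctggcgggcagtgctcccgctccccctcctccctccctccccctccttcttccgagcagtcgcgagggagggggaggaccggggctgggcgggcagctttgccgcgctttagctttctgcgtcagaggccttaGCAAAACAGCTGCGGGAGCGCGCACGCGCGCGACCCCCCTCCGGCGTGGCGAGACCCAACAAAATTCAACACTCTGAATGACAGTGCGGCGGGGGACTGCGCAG
Jarid2: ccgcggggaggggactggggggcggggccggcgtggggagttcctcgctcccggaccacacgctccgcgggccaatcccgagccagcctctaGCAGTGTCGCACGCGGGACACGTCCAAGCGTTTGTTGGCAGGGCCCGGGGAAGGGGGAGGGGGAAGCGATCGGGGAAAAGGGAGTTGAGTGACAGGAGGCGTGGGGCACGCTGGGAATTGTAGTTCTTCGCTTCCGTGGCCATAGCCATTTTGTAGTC
Gsc: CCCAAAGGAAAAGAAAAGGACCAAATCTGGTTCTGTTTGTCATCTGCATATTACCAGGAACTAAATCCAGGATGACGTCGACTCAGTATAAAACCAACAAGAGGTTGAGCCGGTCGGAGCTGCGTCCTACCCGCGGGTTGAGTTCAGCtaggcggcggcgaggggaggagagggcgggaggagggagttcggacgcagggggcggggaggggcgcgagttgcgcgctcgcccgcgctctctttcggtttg
Rps24: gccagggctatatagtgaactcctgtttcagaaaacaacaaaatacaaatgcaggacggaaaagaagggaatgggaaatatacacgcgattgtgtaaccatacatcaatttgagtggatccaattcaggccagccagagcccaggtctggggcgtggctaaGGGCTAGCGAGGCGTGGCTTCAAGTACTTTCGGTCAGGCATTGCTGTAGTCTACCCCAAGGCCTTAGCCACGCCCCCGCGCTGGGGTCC

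Most genes with an OTX2 peak in EpiSCs also had one in DE. The EpiSC list named 5096 genes and the DE list 19566, and 4688 genes were in both, which is 92% of the EpiSC genes and 24.0% of the DE genes. Of all genes named, 2.04% were EpiSC only, 9.56% had peaks in both with DE equal or fewer, 13.9% had more peaks in DE and 74.5% were DE only. The exact 95% intervals of these shares, which cover counting error only, were 1.85 to 2.25%, 9.16 to 9.98%, 13.4 to 14.4% and 73.9 to 75.1%. EpiSC-only genes carried 458 EpiSC peaks, or 7.25% of the EpiSC list. Genes with equal or fewer DE peaks carried 2328 EpiSC and 2191 DE peaks, and genes with more DE peaks carried 3533 EpiSC and 11456 DE peaks. The DE-only genes held 29064 peaks, or 68.0% of the DE list.

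Class borders were set by few peaks. In the class with equal or fewer DE peaks, 1782 of 1910 genes had equal numbers and 1581 had 1 peak in each list, while 128 had fewer in DE, 119 of them by 1 peak. In the gained class, 1143 of 2778 genes had 1 DE peak more than EpiSC peaks. Of the DE-only genes 8430 had 1 peak, and of the EpiSC-only genes 370 did. At the other end, 98 DE-only genes and 165 genes of the gained class had 10 or more DE peaks.

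The DE list was 6.76 times as long as the EpiSC list, and the classes depended on that length. If 6319 of the 42711 DE peaks were kept without regard to position or width, an exact calculation gave an expected 5229 genes with a DE peak, against 5096 genes with an EpiSC peak, so lists of equal length named similar numbers of genes. The expected classes were then 3557 genes EpiSC only, 1298 with equal or fewer DE peaks, 241 gained and 3690 DE only, and 1539 genes (30.2% of the EpiSC genes) were in both. With the 6319 widest DE peaks, those of at least 259 bp, set against the full EpiSC list, the classes held 2967, 1790, 339 and 2768 genes. In that comparison 2129 genes, 41.8% of the EpiSC genes, were in both lists. Only the DE list was cut for width, and the median EpiSC peak was 141 bp wide. Here and below, a gene can thus have fewer of the widest DE peaks than EpiSC peaks through the cut alone. At equal list length the EpiSC-only and DE-only classes were of similar size in either selection, whereas in the full lists DE-only genes were far more numerous. That similarity is arithmetic: both classes leave out the same shared genes, and lists of equal length named similar numbers of genes.

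**Figure D1:**
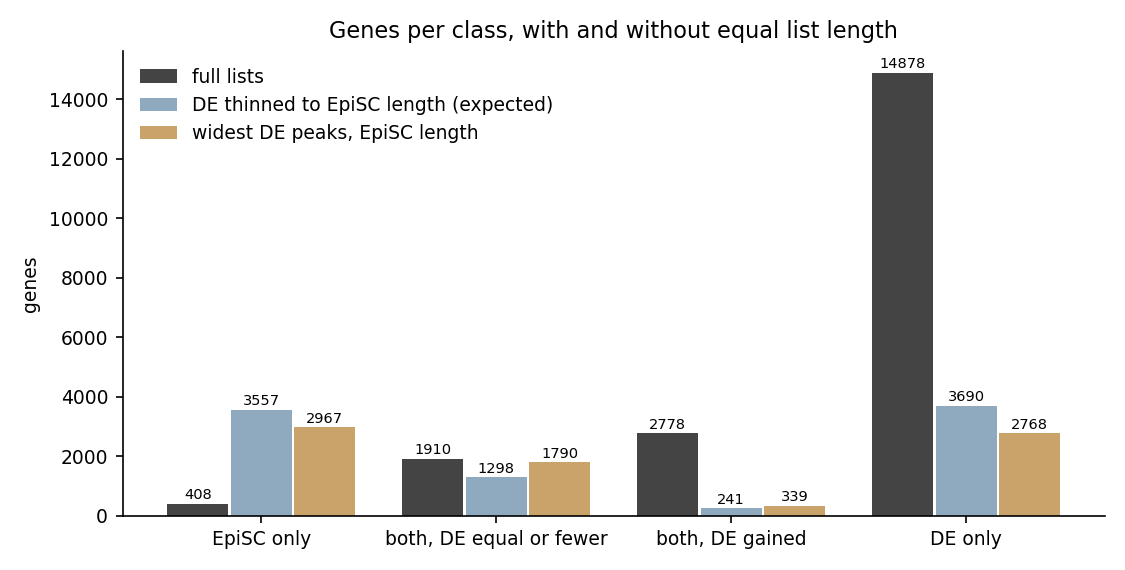
Number of genes in each class (vertical axis) for the full lists, for a DE list thinned to 6319 peaks (expected number) and for the 6319 widest DE peaks. DE-only genes number 14878 in the full lists and 3690 and 2768 at equal list length.

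A gene's share of the DE list was divided by its share of the EpiSC list to give a scaled ratio, in which 1 means that its peaks grew in number as the whole list did. A gene with 1 EpiSC peak needed 7 DE peaks to pass 1. Of the 2778 genes of the gained class, 224 had a scaled ratio above 1, and the class median was 0.444. Among the 5096 genes with an EpiSC peak, 22 (0.432%) were more than 2-fold above 1 and 4201 (82.4%) more than 2-fold below. All 22 had a single EpiSC peak. Of the 4201, 3412 also had a single EpiSC peak, for which the interval is very wide: with 1 EpiSC peak and no DE peak it reaches up to 5.77. The exact 95% interval of the ratio lay wholly below 1 for 83 of these genes (1.63%), of which 38 were EpiSC only, 39 had equal or fewer DE peaks and 6 were in the gained class. With the widest DE peaks this count was 0, and with peaks within 1 kb counted once it was 51. In the full lists it lay wholly above 1 for none of the 19974 genes (0%), against 5 with the widest DE peaks, and a DE-only gene would have needed 27 DE peaks for that. Peaks near the same gene are not independent, so these intervals are too narrow. On simulated lists with known folds this criterion also missed most genes that had been lowered, so a gene left uncalled is not shown to be unchanged.

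The additional DE peaks were spread over genes largely without EpiSC peaks, and the way the ratio is read depends on which list is taken first. Genes with 1, 2, 3 and 4 or more EpiSC peaks had a mean of 2.28, 3.84, 5.59 and 8.97 DE peaks, so DE peaks per gene went up with EpiSC peaks per gene. Their pooled scaled ratios were nevertheless 0.338, 0.284, 0.276 and 0.297. Taken from the DE side, 16.7% of genes with 1 DE peak, 30.3% of those with 3 and 62.7% of those with 10 or more had an EpiSC peak, and their pooled ratios were 0.832, 1.11 and 1.42. Genes selected for having a peak in a list have a high share of that list by the selection itself, so neither direction alone describes the change.

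**Figure D2:**
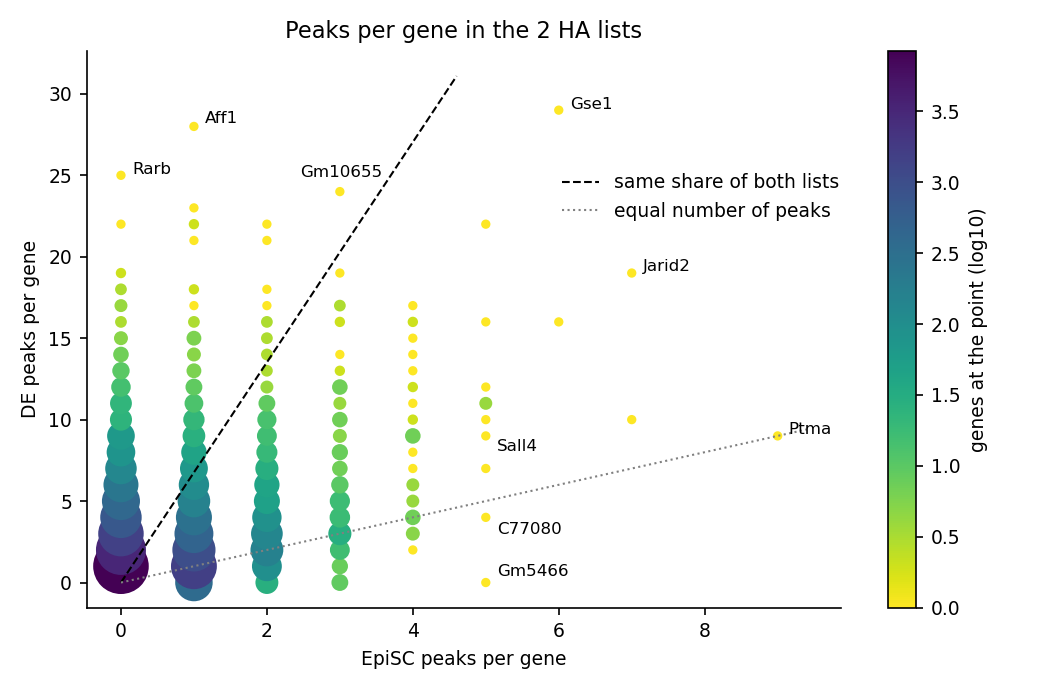
EpiSC peaks (horizontal axis) and DE peaks (vertical axis) per gene, where size and colour of a point give the number of genes on it. The dashed line marks an equal share of both lists, the dotted line equal numbers; among labelled genes Aff1 (1 and 28 peaks) lies above the dashed line and Ptma (9 and 9) on the dotted one.

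Among genes with the largest numbers of added peaks were several long genes. Aff1, a scaffold of the super elongation complex, had 1 EpiSC and 28 DE peaks (scaled ratio 4.14, interval 0.685 to 169), the highest ratio of the 22 genes past 2-fold. Gse1 had 6 and 29 (0.715, 0.292 to 2.11), so the gene with the most DE peaks of the gained class still held a smaller share of the DE list than of the EpiSC list. Robo1, an axon guidance receptor, had 1 and 23, Gm10655 had 3 and 24, and Efna5, an ephrin ligand, and Spock1, a secreted proteoglycan, each had 1 and 22. With the nearest protein-coding gene in place of the deposited one, Gse1 had 8 and 44 peaks, Aff1 1 and 29, Robo1 2 and 25 and Spock1 2 and 28. At Gse1 all 6 EpiSC peaks were overlapped by a DE peak and 23 of the 29 DE peaks were new, although among the widest DE peaks Gse1 had 2 fewer than in EpiSC, and at Robo1, Efna5, Spock1 and Aff1 the EpiSC peak was overlapped as well.

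Rarb, a retinoic acid receptor gene, led the DE-only class with 25 peaks. With 3 EpiSC peaks, the limit that a count of 0 allows, put in place of its 0, its scaled ratio was 1.23, and that of Dab1, a Reelin signalling adaptor with 22 DE peaks, was 1.08. These were the only 2 DE-only genes above 1 on this measure. The exact lower limits, which take in the counting error of both lists, were 0.931 for Rarb and 0.810 for Dab1, so neither was shown to exceed the list scale in the full lists. The lower limit for Rarb passed 1 with the widest DE peaks (1.71), with peaks at least as wide as the narrowest EpiSC peak (1.03) and with peaks within 50 kb of the gene (1.03). Bmper, a BMP-binding secreted protein, and the small RNA gene Gm25258 had 19 DE peaks each, and Nckap5 and Ntm 18 each, a number that 1 further gene shared. With the nearest protein-coding gene, Rarb had 32 DE peaks and 1 EpiSC peak and Nckap5 26 and 2, so both left the DE-only class. Bmper (18 peaks), Dab1 (31 peaks) and Ntm (28 peaks) stayed in it, and the lower limits of Dab1 (1.17) and Ntm (1.05) then passed 1.

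Otx2 itself was DE only, with 2 DE peaks named for it (chromosome 14, 48656781 to 48667644). Counted by nearest protein-coding gene it had 12 DE peaks and still no EpiSC peak.

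The genes with the most EpiSC peaks were Ptma with 9, Gm29417 and Jarid2 with 7 each, and 5031415H12Rik and Gse1 with 6 each. Jarid2 had 19 DE peaks (scaled ratio 0.402, interval 0.162 to 1.13), Gm29417, a long non-coding RNA gene, had 10 (0.211, 0.0726 to 0.654), and 5031415H12Rik had 16. Among the widest DE peaks, a cut made in DE alone, Jarid2 and Gm29417 had 6 peaks fewer than in the full EpiSC list and 5031415H12Rik 2 fewer. Ptma had 9 DE peaks (0.148, 0.0520 to 0.421), and 6 of its 9 EpiSC peaks were overlapped by a DE peak. Counted by protein-coding gene, Ptma had 10 and 11 peaks and passed into the gained class, and Jarid2 had 7 and 36. Besides Ptma, the class with equal or fewer DE peaks was led by C77080 with 5 EpiSC and 4 DE peaks, by Enc1 and Gm24690 with 4 each in both lists, and by Gm10203 and Gm11986 with 4 and 3. The last 4 are the first in alphabetical order among the genes of this class with 4 EpiSC peaks, and others equal or exceed their DE counts. Enc1, which encodes an actin-binding protein of the nervous system, had 8 and 19 peaks with the nearest protein-coding gene.

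Among genes with at least 3 EpiSC peaks, Gm10655 had the highest scaled ratio, 1.18 (interval 0.359 to 6.14), and it alone was above 1. It was followed by Ank3, an ankyrin that anchors membrane proteins, with 3 EpiSC and 19 DE peaks (0.937). Auts2, Nfkb1, an NF-kappaB subunit, and Rplp1, a protein of the ribosomal stalk, each had 3 and 17 peaks (0.838). Auts2 held 71 DE peaks against 7 in EpiSC when counted by protein-coding gene. The lowest ratios were those of EpiSC-only genes. Gm5466, a pseudogene, had 5 EpiSC peaks and no DE peak (interval up to 0.161). A830018L16Rik, Gm23444, Gm25480, Gm26377 and Hist1h3c had 3 EpiSC peaks and no DE peak (interval up to 0.358), as had other genes that come later in the alphabet. Gm23444 is annotated as an snRNA and Gm25480 as a snoRNA gene. The gene A830018L16Rik is 562288 bp long, and with the nearest protein-coding gene it had 6 EpiSC and 10 DE peaks.

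In genes with peaks in both lists, most EpiSC peaks lay at the position of a DE peak. Of 5861 EpiSC peaks of such genes, 4932 shared 1 bp or more with a DE peak (84.1%, exact 95% interval 83.2 to 85.1%). The share was 80.2% (78.5 to 81.8%) where DE had equal or fewer peaks and 86.8% (85.6 to 87.9%) where DE had more. Over all 6319 EpiSC peaks it was 78.8% (4980 peaks). Of the 4932 peaks, 4892 overlapped a DE peak of the same gene name, and such an overlap puts the gene in both lists. The high share is therefore partly set by the definition of these classes. In 504 of the 4688 genes (10.8%) none of the EpiSC peaks was overlapped, so these genes had peaks in both states at different positions. The peaks left without overlap in both-state genes lay at a median of 5.56 kb from the nearest DE peak.

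EpiSC-only genes were defined by name, and some of their peaks coincided in position with DE peaks. Of their 458 EpiSC peaks, 48 overlapped a DE peak that the DE table names for another gene (10.5%, 7.83 to 13.7%). This low share is partly set by the class, which leaves out every gene named for a DE peak. The other 410 lay at a median of 23.9 kb from the nearest DE peak, and 99 of them (24.1%) had one within 10 kb. In 47 of the 408 genes every EpiSC peak was overlapped. Background overlap was also most frequent here: 22 of the 458 peaks overlapped an IgG or parental peak, against 14 of 2328 and 14 of 3533 EpiSC peaks in the classes with equal or fewer and with more DE peaks. The part of background in the EpiSC-only class was not tested, and without the overlapping peaks the class held 390 genes in place of 408.

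In DE, peaks at EpiSC positions were wider than new ones in each class. A wider peak more easily shares 1 bp with an EpiSC peak, so the direction of this difference is partly set by the criterion. At genes with more DE peaks, 3086 of 11456 DE peaks (26.9%, 26.1 to 27.8%) overlapped an EpiSC peak, with a median width of 232 bp, and the 8370 new peaks had a median of 130 bp. At genes with equal or fewer DE peaks, 1826 of 2191 (83.3%) overlapped an EpiSC peak, with medians of 214 bp and, for the 365 new peaks, 117 bp. Of the 29064 peaks of DE-only genes 80 overlapped an EpiSC peak (0.275%), at 234.5 bp against 130 bp. Over all 42711 DE peaks the share was 11.7% (4992 peaks). New peaks of the gained class lay at a median of 19.5 kb from the nearest EpiSC peak and those of DE-only genes at 193 kb.

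Gene size differed between the classes. Because the gene table matched 74.8% of EpiSC-only and 78.4% of DE-only names, too few for this purpose, nearest genes were assigned anew from the table, which gave classes of 411, 1954, 2712 and 14502 genes. Median gene length was 5.27 kb in EpiSC-only genes (95% interval of the median 3.97 to 6.89 kb), 11.7 kb (10.8 to 12.7 kb) in genes with equal or fewer DE peaks, 31.0 kb (28.8 to 33.9 kb) in gained genes and 16.3 kb (15.7 to 16.9 kb) in DE-only genes. The territory of a gene, its length plus the sequence up to the middle of the gaps to its neighbours, had medians of 23.2, 24.1, 64.2 and 46.7 kb in the same order. Among protein-coding genes alone the order of the lengths was the same, at 12.4, 15.5, 49.3 and 29.3 kb. Per 100 kb of territory, gained genes held 3.27 DE peaks, genes with equal or fewer DE peaks 2.59 and DE-only genes 2.31. For protein-coding genes these values were 3.21, 3.13 and 2.44, and the classes are themselves defined by DE counts. The part of gene size in the classes was not tested.

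**Figure D3:**
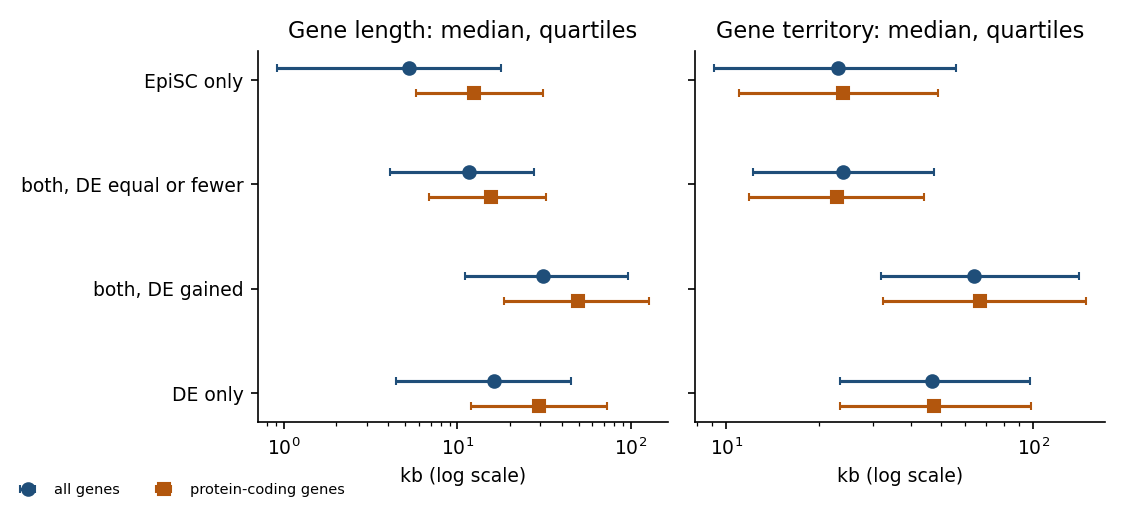
Gene length (left) and territory (right) in kb on log axes for the 4 classes, for all genes and for protein-coding genes; points are medians and bars span the quartiles. Gained genes are the longest, with a median of 31.0 kb for all genes and 49.3 kb for protein-coding genes.

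Gene types also differed, again with the newly assigned genes. Transfer RNA genes had 60 EpiSC and 77 DE peaks, a pooled scaled ratio of 0.190 (interval 0.134 to 0.271), and 35 of the 88 with a peak were EpiSC only (39.8%), against 182 of 11598 protein-coding genes (1.57%). These short genes, transcribed by RNA polymerase III, are present in near-identical copies, so the placement of reads among them is uncertain. Of their 60 EpiSC peaks 2 overlapped a background peak, against 17 of 4452 for protein-coding genes. The ratio was 0.754 (0.583 to 0.987) for snRNA genes with 71 and 362 peaks, and 0.943 (0.914 to 0.973) for protein-coding genes with 4452 and 28376. Long non-coding RNA genes had 1244 and 9949 peaks (1.18, 1.12 to 1.26), pseudogenes 423 and 3357 (1.17, 1.06 to 1.30) and snoRNA genes 30 and 342 (1.69, 1.16 to 2.54). Of the 7 types plotted, transfer RNA genes lay farthest from an equal share. Peaks near the same gene are not independent, so these intervals are too narrow.

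**Figure D4:**
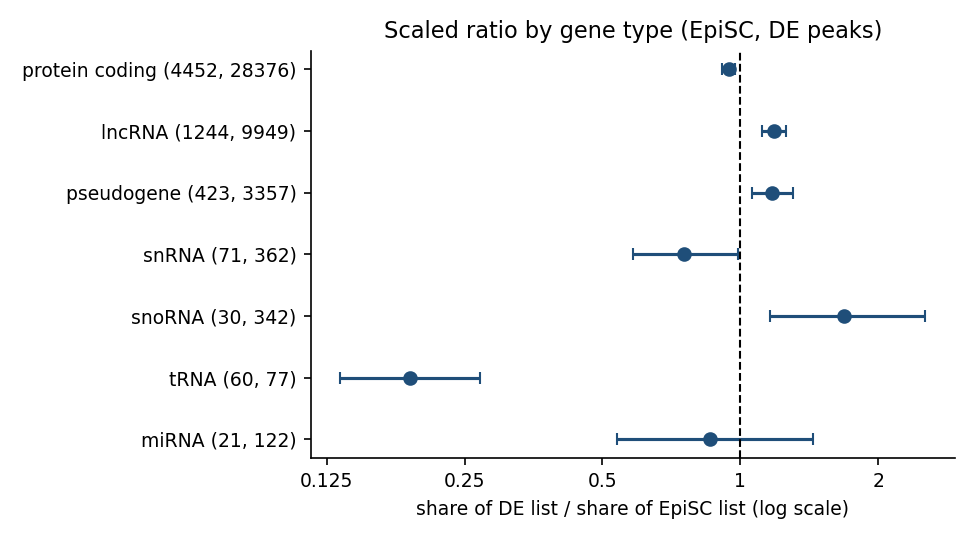
Share of the DE list divided by share of the EpiSC list, on a log axis, for gene types, with exact 95% intervals from counting; numbers of EpiSC and DE peaks are in brackets. Transfer RNA genes lie lowest at 0.190.

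Gene groups of the epiblast, of endoderm and of signalling pathways were set beside all genes named in either list, of which 25.5% had an EpiSC peak and 74.5% were DE only. In the same background 13.9% were in the gained class and 11.6% were EpiSC only or had equal or fewer DE peaks. The median gene had 1 DE peak and no EpiSC peak. These lists, 16 in all with 248 genes, overlap in part, and 41 genes were not named for any peak. Peaks of the same gene are not independent, so the intervals of the pooled ratios below are too narrow, also where they leave out 1. The lists were written with earlier results of these data known.

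Of 10 core pluripotency factors, 9 were named, 5 of them in both lists. In all 6 had an EpiSC peak (66.7%), with a median of 1 EpiSC and 2 DE peaks, and their 13 EpiSC and 23 DE peaks gave a pooled ratio of 0.262 (0.127 to 0.563). Sall4, a zinc finger factor that sustains pluripotency, had 5 and 9 peaks, all 5 EpiSC peaks overlapped in DE. Tdgf1, the Nodal co-receptor Cripto, had 3 and 4 peaks. Among the widest DE peaks Sall4 had 3 fewer than in EpiSC and Tdgf1 1 fewer. Nanog had 2 in each list, of which 1 was shared in position: the EpiSC peak across the start of the promoter window (chromosome 6, 122707159 to 122707269) had no DE counterpart, and the second DE peak lay 3′ of the gene at 122720100 to 122720230. Pou5f1, which encodes OCT4, had 1 and 3 peaks at different positions. Utf1, a chromatin factor of pluripotent cells, was EpiSC only with 1 peak, but had 2 and 6 peaks with the nearest protein-coding gene.

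Naive pluripotency factors, of an earlier state than that of EpiSCs, were named in 8 of 12 cases, 7 of them DE only, beside 74.5% of all genes. Their pooled ratio of 3.99 had an interval of 0.658 to 164, which includes 1. Klf2 had 1 and 2 peaks, and 1 fewer than in EpiSC among the widest DE peaks. Esrrb, an orphan nuclear receptor, had 14 DE peaks, Klf4 had 3 (15 when counted by protein-coding gene) and Dppa3 had 2. Primed epiblast genes were mixed, with 1 of 11 named genes EpiSC only, 1 equal or fewer, 3 gained and 6 DE only. The de novo DNA methyltransferase genes differed: Dnmt3b had 1 EpiSC peak, on chromosome 2 at 153643145 to 153643326, and no DE peak, while Dnmt3a had no EpiSC peak and 6 DE peaks. Pou3f1, a POU factor of the primed epiblast, had 2 peaks in each list, Etv5 3 and 6, and Grhl2 11 DE peaks only. Counted by protein-coding gene Pou3f1 had 3 and 12 peaks, and among the widest DE peaks Etv5 had 2 fewer than in EpiSC.

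Of 17 definitive endoderm genes 15 were named, 11 of them DE only, 3 gained and 1 with equal counts, so 26.7% had an EpiSC peak, close to the 25.5% of all genes. Their median was 4 DE peaks and no EpiSC peak. Prdm1, a transcriptional repressor, had 14 DE peaks, Gata4, a zinc finger factor of endoderm, 9, and the chemokine receptor gene Cxcr4 7, none of them with an EpiSC peak. Cdh1, the gene of E-cadherin, had 3 and 10 peaks, but 3 fewer than in EpiSC among the widest DE peaks, and Trh had 2 in each list. Cxcr4 had 19 DE peaks when counted by protein-coding gene. The pooled counts of 7 and 77 peaks gave a ratio of 1.63 (0.753 to 4.18), an interval that includes 1. All 16 anterior patterning genes were named, 9 DE only and 7 gained, with a median of 4 DE peaks. Cyp26a1, which degrades retinoic acid, had 2 and 11 peaks, Lefty1, a Nodal antagonist, 2 and 5, and the WNT antagonists Sfrp1 and Shisa2 10 and 8 DE peaks only. Shisa2 had no peak when counted by protein-coding gene, and Cyp26a1 had 1 and 7. Of 15 primitive streak genes 13 were named, 10 DE only and 3 gained. These 3 were Fgf8 with 2 and 9 peaks, Eomes, a T-box factor required for endoderm, with 2 and 7, and Gsc with 1 and 4. The streak gene T had 3 DE peaks only. Counted by protein-coding gene, Eomes had 7 and 13, Gsc 1 and 12 and T 1 DE peak.

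Nodal pathway genes had an EpiSC peak in 9 of 15 named genes (60%), and 8 were gained, among them the effector gene Smad3 with 1 and 7 peaks, while Smad2 had 6 DE peaks only. Their 13 EpiSC and 51 DE peaks gave a pooled ratio of 0.580 (0.311 to 1.16), an interval that includes 1. Skil, an inhibitor of SMAD signalling, was EpiSC only with 1 peak, also with the nearest protein-coding gene. FGF pathway genes had an EpiSC peak in 10 of 14 named genes, or 71.4%, and 8 were gained. The pooled ratio of their 19 and 77 peaks was 0.600 (0.359 to 1.05), which also includes 1. Fgfr2, a receptor, had 1 and 15 peaks (ratio 2.22, 0.341 to 93.4), Spry2, a feedback inhibitor, 4 and 10, and Dusp4, a phosphatase, 1 and 7. Fgf15, a ligand, was EpiSC only with 1 peak, but had 1 peak in each list when counted by protein-coding gene. Etv4, an ETS factor, had 2 in each list. On the same count Fgfr2 had 1 and 25 and Dusp4 5 and 18, and among the widest DE peaks Spry2 had 4 fewer than in EpiSC.

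WNT pathway genes were named in 29 of 30 cases, 13 gained, 13 DE only and 3 with equal or fewer DE peaks. The pooled ratio of their 23 and 124 peaks was 0.798 (0.508 to 1.30). The ligand gene Wnt5a had 16 DE peaks only, and Lgr5, an R-spondin receptor gene, had 2 and 9. The 3 with equal or fewer were the ligand gene Wnt8a with 3 and 2, the receptor gene Fzd2 with 2 in each list and the co-receptor gene Lrp5 with 1 in each list. At Lrp5 the peaks did not overlap, whereas at Wnt8a 2 of the 3 EpiSC peaks were overlapped. Of 17 named BMP pathway genes 12 were DE only and 29.4% had an EpiSC peak, close to the 25.5% of all genes. With 7 and 81 peaks their pooled ratio was 1.71 (0.794 to 4.39), an interval that includes 1. The DE-only genes included the ligand gene Bmp7 with 9 DE peaks. Smad6, an inhibitory SMAD, had 1 and 12 peaks, Msx1, a target gene, 1 and 8, the receptor gene Bmpr1b 1 and 6, and the antagonist gene Grem1 1 in each list. Counted by protein-coding gene, Grem1 had no peak, Wnt5a had 6 DE peaks, Smad6 had 2 and 14 and Bmpr1b 2 and 6, and Fzd2 had 3 and 5 and was in the gained class. Among the widest DE peaks Msx1 had 1 fewer than in EpiSC.

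Retinoic acid pathway genes had an EpiSC peak in 9 of 14 named genes, or 64.3%, and 7 were gained. The pooled ratio of their 10 and 79 peaks was 1.17 (0.603 to 2.53), an interval that includes 1. Beside Rarb and Cyp26a1, Dhrs3, a retinaldehyde reductase, had 1 and 8 peaks and the receptor gene Rxra 1 and 7. Stra6, a retinol transporter gene, had 1 peak in each list at different positions, and Rdh10, which oxidises retinol, was EpiSC only with 1 peak. Counted by protein-coding gene, Rdh10 had 1 peak in each list, Dhrs3 1 and 5 and Stra6 1 DE peak alone.

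None of 6 named mesoderm genes and none of 10 named extraembryonic endoderm genes had an EpiSC peak. The lower limits of their pooled ratios were 0.411 and 0.810, so neither was shown to exceed the list scale. Foxc1 had 4 DE peaks, Twist1 3, Msgn1 2 and Foxc2 1, Cubn and Pdgfra had 4 each, and Apob and Col4a1 3 each. Twist1 had no peak when counted by protein-coding gene, and Pdgfra had 13 DE peaks, Apob 9 and Cubn 2. Of 10 named neural ectoderm genes 7 were DE only and 3 (30%) had an EpiSC peak, close to the share of all genes. Pax3 had 1 and 9 peaks, Sox11 2 and 8, Neurog1 and Neurog2 2 DE peaks each, and Nes, the gene of the neural progenitor filament nestin, 2 and 1. Sox11 had 5 and 26 when counted by protein-coding gene, and 2 fewer than in EpiSC among the widest DE peaks.

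The pooled ratio was above 1 for axon guidance genes and below 1 for ribosomal protein genes. Single genes weigh heavily in it: Robo1 holds 23 of the 135 axon guidance DE peaks and Rplp1 17 of the 51 ribosomal ones. The pooled intervals are too narrow for that reason, so neither list is shown to depart from the list scale. All 21 axon guidance genes were named, 15 DE only and 6 gained, and their 9 EpiSC and 135 DE peaks gave a pooled ratio of 2.22 (1.13 to 4.96). Besides Robo1, the ligand gene Slit1 had 3 and 16 peaks, a ratio below 1 of its own (0.789) and 1 peak fewer than in EpiSC among the widest DE peaks. Sema6d had 1 and 10 peaks, and the receptor gene Plxna2 13 DE peaks only, or 30 when counted by protein-coding gene. Of 20 named ribosomal protein genes 6 (30%) had equal or fewer DE peaks, 1 was gained and 13 were DE only, with 16 and 51 peaks in all (0.472, 0.265 to 0.886). The count of 6 was the same with the widest DE peaks, under which the classes EpiSC only and equal or fewer held 2967 and 1790 genes in all, against 408 and 1910 in the full lists. Under that alternative these classes together held 14 WNT, 8 FGF, 8 retinoic acid, 6 core pluripotency and 4 axon guidance genes. Rps19 had 3 and 2 peaks. Rpl11 had 3, Rpl10 2 and Rpl18 1 in each list, and every EpiSC peak of these 3 genes was overlapped in DE. Rps24 and Rps14 had 6 and 5 DE peaks only, but with the nearest protein-coding gene Rps24 had 3 and 23 and Rps14 0 and 1. On the same count Rpl11 had 2 and 5 and was gained, and Rpl18 had no peak. Robo1 spans 1019974 bp and Rps19 5220 bp, and the part of gene size in the difference between these lists was not tested.

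**Figure D5:**
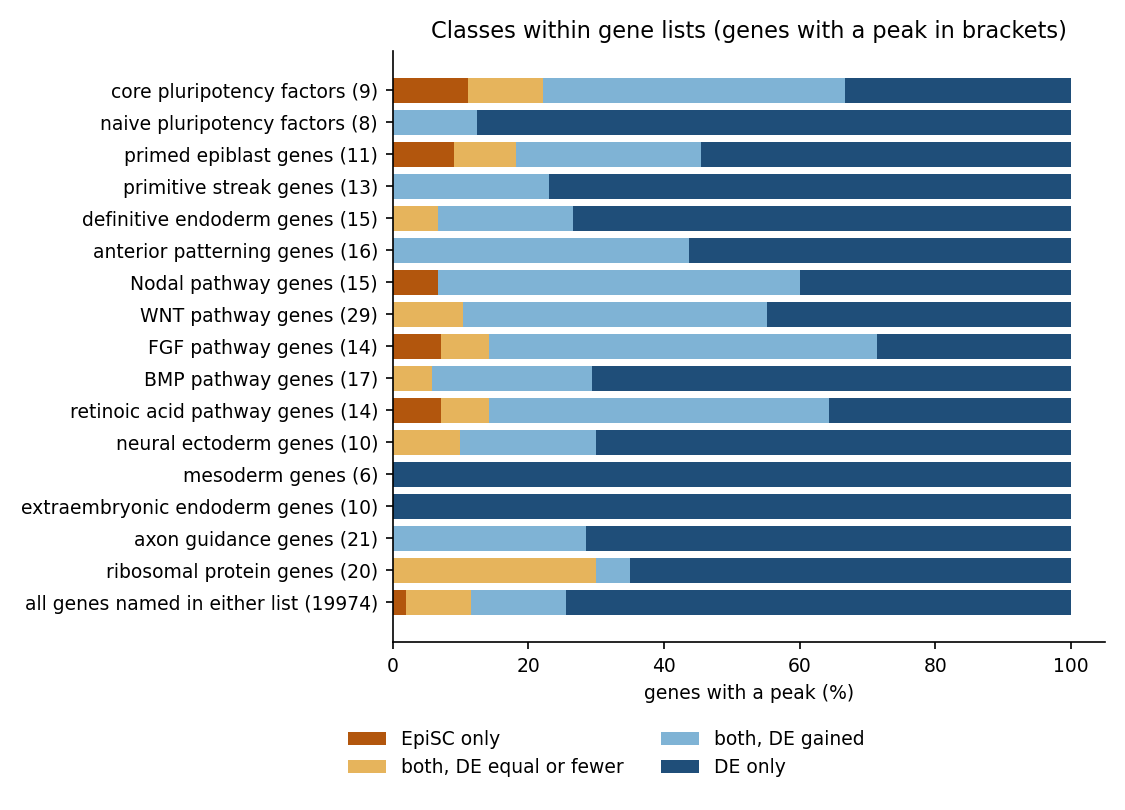
Share of genes with a peak (horizontal axis, in percent) in each of the 4 classes for 16 gene lists and for all genes named, with the number of genes with a peak in brackets. Of the ribosomal protein genes 30% had equal or fewer DE peaks, and of the mesoderm and extraembryonic endoderm genes none had an EpiSC peak.

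RefSeq promoter windows, from 250 bases before to 50 after a start, were matched to the deposited names. Windows were found for 174 of 408 EpiSC-only, 1243 of 1910 equal-or-fewer, 1703 of 2778 gained and 7431 of 14878 DE-only genes. Each is under 80% of its class, so a comparison of promoters between the classes is void, and the counts below describe the matched genes alone. At least 1 window was overlapped by an EpiSC peak in 806 of 1243 genes with equal or fewer DE peaks (64.8%), in 713 of 1703 gained genes (41.9%), in 58 of 174 EpiSC-only genes (33.3%) and in 102 of 7431 DE-only genes (1.37%). A DE peak overlapped a window of 855 (68.8%), 1015 (59.6%) and 2759 of 7431 DE-only genes (37.1%). It also did so in 40 of the 174 EpiSC-only genes (23.0%), where the DE table names another gene as nearest.

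The letters TAATCC, the core recognised by homeodomains of the bicoid type to which OTX2 belongs, were searched on both strands (GGATTA on the other) in all 32851 windows, of which 7.06% held them. The share was 9.60% of the 2000 windows overlapped by peaks of both lists (exact interval 8.34 to 11.0%), 7.18% of the 4027 overlapped by a DE peak alone (6.40 to 8.02%), and 6.86% of the 26745 with neither. Of the 79 windows with an EpiSC peak alone 4 held it (5.06%, 1.40 to 12.5%). None of the 5 sequences printed above held a match in its 250 bases, which says nothing of the rest of their peaks.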

How the data were processed

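CUT&RUN peak lists of 4 anti-HA samples (2 per cell state) were compared per gene. Per the submitters' processing notes, the build was mm10 and the tools were Bowtie2 2.3.5.1, SAMtools 1.14, Picard 2.26.10, bedtools 2.30 and MACS2 2.2.6. Their roles, the thresholds and the control are not given in the sources used here. A merging distance of 50 bp stands in the names of the merged HA interval lists, whose 6319 and 42711 intervals equal those of the lists used here. The names of the background lists do not give it. The deposited values used are interval positions and the nearest gene named by the authors for each peak. Read depth is unknown, and the lists hold no peak height. The label of EpiSC HA replicate 2 also names the DE list, which was read as a slip. Marks for genes up or down in the tables were not used.

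Rows per gene name were counted with Python 3.11.15, pandas 2.3.3, numpy 2.4.6 and scipy 1.17.1, and figures drawn with matplotlib 3.10.9. Of the names, 14 were numbers, date codes in place of March, Sept and similar symbols, and 5 names lay on more than 1 chromosome; all were counted as deposited. The scaled ratio is a gene's DE count over its EpiSC count, divided by the ratio of list lengths, with an exact (Clopper-Pearson) 95% interval of the DE share converted to a ratio; shares have the same interval. Interval coverage, thinning and overlaps were tested on simulated data; the detection of lowered genes missed the pass mark first set for it, which was then replaced by the weaker requirement that no lowered gene be called higher. Gene positions and promoter sequences came from RefSeq tables for GRCm38.p6, and 16046 of 19974 names (80.3%) matched. Genes were assigned anew by distance from the peak centre to the gene body, the shortest gene winning inside several. Of the peaks with a matched name 68.8% kept their gene. Promoter windows matched under 80% of the names in each class.

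The members and lists were chosen with earlier results of these data known. Genes were named by this rule: Otx2; the 6 genes with the most peaks in each class (the largest difference in the gained class); the 5 with the most EpiSC peaks; the 5 highest and 5 lowest scaled ratios with at least 3 EpiSC peaks; and of each list up to 4 genes with the most DE peaks and all that were EpiSC only or had equal or fewer DE peaks. Ties were taken in alphabetical order. A few genes that the rule names are not reported here. The lists were core and naive pluripotency, primed epiblast, primitive streak, definitive endoderm, anterior patterning, Nodal, WNT, FGF, BMP and retinoic acid pathways, neural ectoderm, mesoderm, extraembryonic endoderm, axon guidance and ribosomal protein genes. Alternatives changed list length, peak width, background, gene assignment, distance, clustering, chromosomes, overlap and fold.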

Additional observations from a re-analysis of the deposited data

How the results depend on the processing

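No paired analysis was possible because each state has 1 list for both of its HA replicates, and for the same reason no replicate could be left out. Read depth and peak height are not in the lists, so the share of the DE surplus that comes from sequencing or calling was not tested. In all, 109 values of the comparisons were recomputed: 75 were kept and 34 moved. Counts of genes were kept if they stayed within 1.5 times the main value. Overlap shares and median gene lengths and territories were kept only inside the interval of the main value. Some of these were therefore labelled as moved after a change of less than 1.5 times. The cause of each change was not tested beyond what the alternative itself leaves out.

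List length moved the classes most. With the widest DE peaks EpiSC only, gained and DE only became 2967, 339 and 2768, and with thinning 3557, 241 and 3690. With the nearest protein-coding gene, EpiSC only became 172 and DE only 8720, and with the wider 50% of each list gained became 1013. The 22 genes more than 2-fold above the list scale became 84 with the widest DE peaks, 96 with protein-coding genes, 52 at 1.5-fold, 5 at 3-fold and 0 with at least 2 EpiSC peaks, an alternative chosen after seeing the data, which left 789 more than 2-fold below. The 83 genes with the interval below 1 became 0 with the widest DE peaks and 51 with peaks within 1 kb counted once. The count of 0 with the interval above 1 became 5 with the widest DE peaks (Gm1000, Gm25258, Lrig3, Prdm1 and Rarb), 1 with equal minimum width and 1 within 50 kb (Rarb in both), and 7 with protein-coding genes (Bmp2, Cdh2, Dab1, Mecom, Ntm, Plxna2 and Runx1).

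The overlap of EpiSC peaks became 75.3% (equal or fewer) and 81.5% (gained) when 50% of the peak had to be covered, and 81.9% and 87.9% with centres within 500 bp. Median lengths of protein-coding genes were 12.4, 15.5, 49.3 and 29.3 kb from EpiSC only to DE only. Of the listed genes, 5, 16, 58 and 128 in the 4 classes became 28, 35, 16 and 49 with the widest DE peaks, and EpiSC only became 3 with protein-coding genes.

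The sign of DE minus EpiSC peaks reversed for 15 values. With protein-coding genes it became 4 for A830018L16Rik and Utf1. With the widest DE peaks, chosen for single genes after seeing the data, it became -6 for Gm29417 and Jarid2, -4 for Spry2, -3 for Cdh1 and Sall4, -2 for 5031415H12Rik, Etv5, Gse1 and Sox11, and -1 for Klf2, Msx1, Slit1 and Tdgf1. The EpiSC list was not cut for width in this alternative, so these signs do not show a loss of binding. Of 465 values for single genes and lists, 285 were kept and 165 moved without reversing. Of 96 named protein-coding genes, 79 had the same class with the protein-coding assignment and 17 another.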

Other observations

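Some gene names in the deposited tables had become numbers of the kind a spreadsheet gives for dates, which bears on any count per gene. There were 14 such names with 6 EpiSC and 27 DE peaks. By position, 1 of them, 45544, lay at Septin9, a cytoskeletal septin gene, and held 4 EpiSC and 9 DE peaks. The name 45353 stood for peaks at Mtarc2 on chromosome 1 (1 DE peak) and at Marchf2 on chromosome 17 (1 peak in each list), so a count by name merged 2 genes.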
